A study of Mus musculus with 32 samples.

Results

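In all, 6 genes of Kupffer cells and 4 genes of MHC class II antigen presentation were followed in RNA from whole mouse liver, which made 10 of the 23109 genes tested. Members were the probes whose RefSeq identifier belongs to Clec4f, Cd5l, Vsig4, Marco, Adgre1 and Csf1r on the one side and to H2-Aa, H2-Ab1, H2-Eb1 and Cd74 on the other. They had 14 probes of the 55681 on the array, with 2 for Adgre1, 3 for Csf1r, 2 for H2-Ab1 and 1 for each other gene. All 14 were well above background on all 32 arrays, and all 10 genes passed the filter on dim probes.

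The mice were male wild-type C57BL/6 animals housed singly. Chronic jet lag (CJ) began at 4 weeks of age and shuttled the animals between a pair of time zones 8 hours apart, and steady schedule (NS) mice stayed on 12 hours of light and 12 hours of dark. Livers were taken 2, 10 or 18 hours after lights on (ZT2, ZT10, ZT18) at 12 or at 30 weeks of age, from 2 mice per group at ZT2 and 3 at ZT10 and ZT18, which gave 8 mice for each schedule and age. Each array held the RNA of 1 mouse, and a slide held 1 array of each schedule at each age. All mice were wild type, so no genotype differed between groups, and whole liver was assayed, so the cells that carried each transcript were not separated. A level is log2 of the processed signal relative to the 75th percentile of its array, so that 1 unit is a doubling. Levels are compared between mice for 1 gene and not between genes.

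Kupffer cells are the resident macrophages of the liver. They line the sinusoids, take up particles, dying red cells and complement-coated bacteria from portal blood, and depend on the receptor for colony-stimulating factor 1. MHC class II molecules carry peptides from engulfed proteins to CD4 T cells, and in liver they are known from Kupffer cells, dendritic cells, B cells and activated endothelium. The class II alpha and beta chains pair in the endoplasmic reticulum with the invariant chain Cd74, and their genes are switched on together through the X and Y boxes of their promoters, which the RFX complex, NF-Y and the coactivator Ciita read.

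Of the 10 members 6 had a promoter in the RefSeq tables for GRCm38.p6, from 250 bases before to 50 after the start. The sequences below are those of 2 class II chains, whose levels moved together, and of 2 Kupffer cell genes, of which Marco varied most. They lie at chr17:34287774-34288073 on the minus strand (H2-Aa), chr17:34305617-34305916 on the plus strand (H2-Eb1), chrX:96293389-96293688 on the minus strand (Vsig4) and chr1:120504975-120505274 on the minus strand (Marco). Each is written 5′ to 3′ on the gene's strand. In the class II sequences capitals mark GCAACT, from the X box, and CTGATTGG, the Y box core. In the Kupffer cell sequences they mark GAGGAA, the core bound by the macrophage factor PU.1 (Spi1).
H2-Aa: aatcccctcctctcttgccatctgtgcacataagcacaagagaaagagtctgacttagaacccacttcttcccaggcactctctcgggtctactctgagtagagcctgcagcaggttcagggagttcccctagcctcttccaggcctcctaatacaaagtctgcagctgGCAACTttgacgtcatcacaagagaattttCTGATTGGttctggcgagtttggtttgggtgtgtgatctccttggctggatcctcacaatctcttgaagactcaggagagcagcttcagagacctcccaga
H2-Eb1: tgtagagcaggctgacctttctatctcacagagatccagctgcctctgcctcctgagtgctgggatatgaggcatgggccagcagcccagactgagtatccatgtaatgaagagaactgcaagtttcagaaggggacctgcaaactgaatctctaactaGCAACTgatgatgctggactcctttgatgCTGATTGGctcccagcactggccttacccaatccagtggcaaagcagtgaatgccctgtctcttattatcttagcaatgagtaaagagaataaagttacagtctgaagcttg
Vsig4: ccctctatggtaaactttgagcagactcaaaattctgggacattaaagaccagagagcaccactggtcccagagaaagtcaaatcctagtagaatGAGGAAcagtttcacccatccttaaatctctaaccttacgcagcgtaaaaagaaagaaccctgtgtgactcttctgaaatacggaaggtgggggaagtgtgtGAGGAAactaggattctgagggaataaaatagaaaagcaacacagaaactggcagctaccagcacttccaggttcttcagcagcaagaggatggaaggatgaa
Marco: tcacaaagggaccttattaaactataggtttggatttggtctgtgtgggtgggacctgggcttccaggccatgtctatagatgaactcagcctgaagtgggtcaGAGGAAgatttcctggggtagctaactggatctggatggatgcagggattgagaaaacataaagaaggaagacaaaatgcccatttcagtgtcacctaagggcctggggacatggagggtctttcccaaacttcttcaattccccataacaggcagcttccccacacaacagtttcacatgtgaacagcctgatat
The motifs were chosen after the sequences were seen and were searched on both strands. CTGATTGG was in 4.1% of all 32851 promoters of this length and GCAACT in 10.9%. H2-Aa held them 51 and 81 bases before the start, and H2-Eb1 held them 62 and 91 bases before it. GCAACT within 40 bases before CTGATTGG on the same strand was in 8 of 32851 promoters, 0.0244%, and among other class II genes H2-Eb2 held this pair and H2-DMa, H2-DMb1, H2-Oa and H2-Ob did not. GAGGAA was in 28.3% of all promoters, with 2 matches in Vsig4, 1 in Marco and 1 in Cd5l, and these letters were not in the Clec4f window. A match describes letters in a sequence and was not tested as a binding site.

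Over the 17 planned comparisons no member passed an adjusted p of 0.05 in any of 170 tests (limma with slide as a random block, Benjamini-Hochberg over 23109 genes). The lowest adjusted p was 0.135, and 15 of the 170 tests were under an unadjusted p of 0.05, which is 8.82%, against 17.1% of the tests of all genes. The differences below are therefore given as values with their errors, and none of them is a called change. In whole liver, fewer Kupffer cells and less RNA of a gene per cell cannot be told apart.

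**Figure D1:**
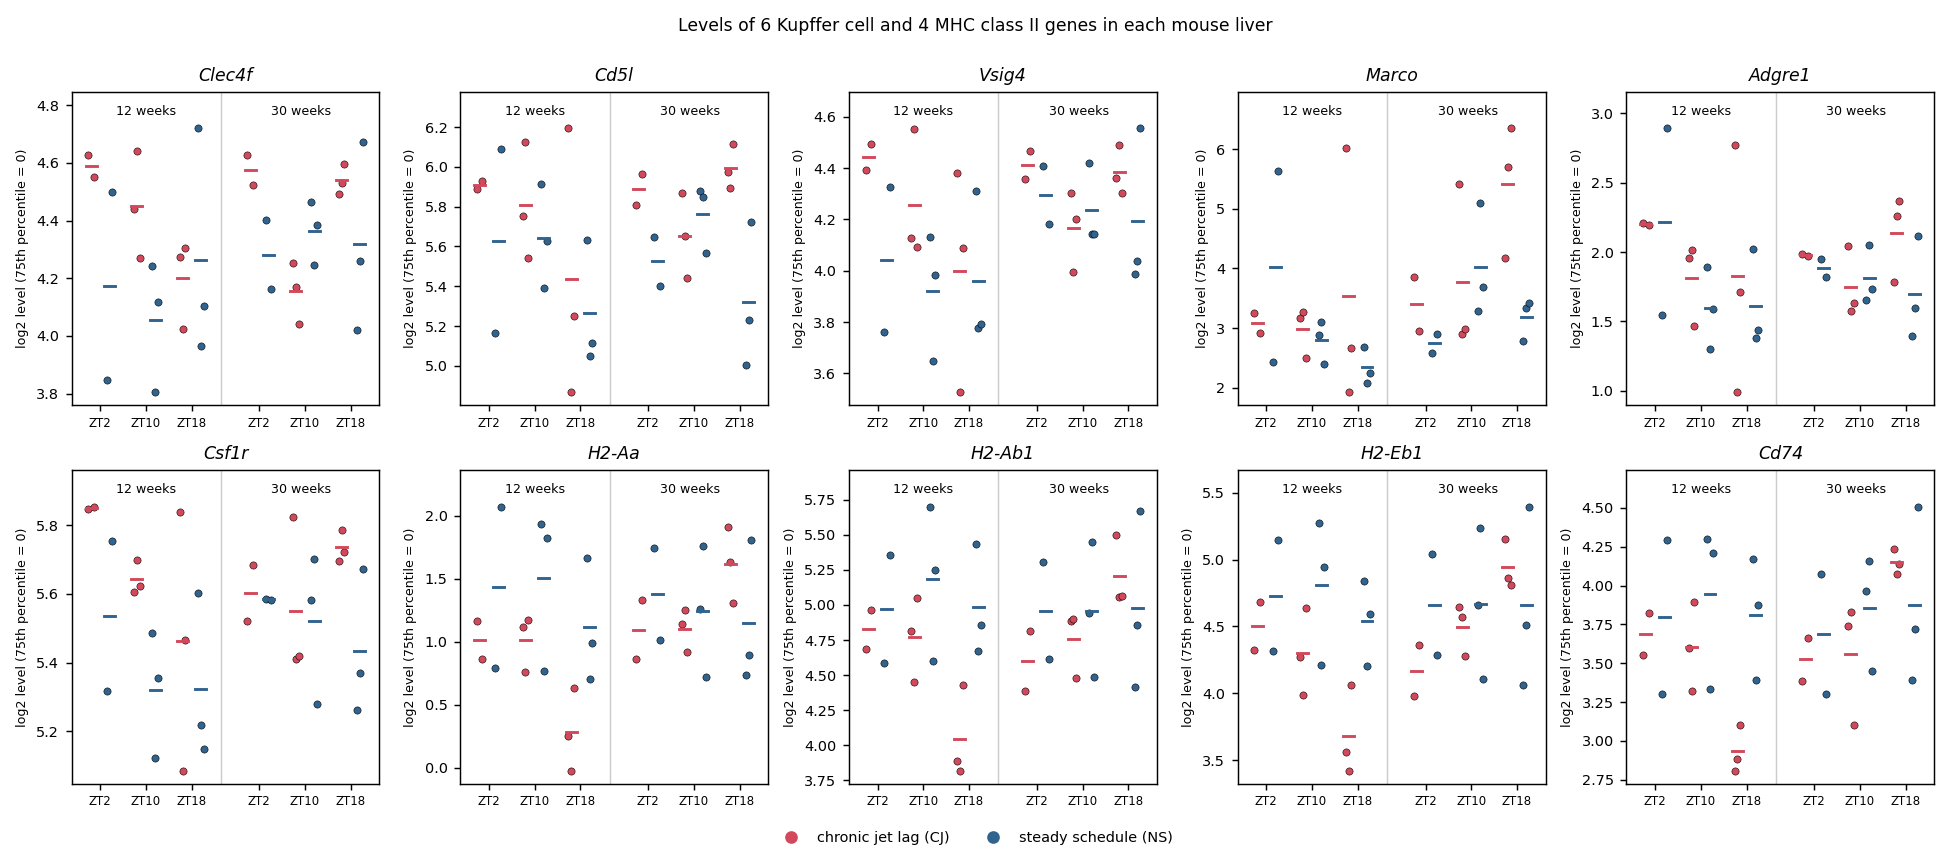
Log2 level of each of the 10 genes in every liver (points) with the group mean (bars), by time, with CJ left of NS at each time and 12 weeks left of 30 weeks; the vertical scales differ between genes. In all 4 class II genes the lowest group mean is CJ at ZT18 at 12 weeks and the highest is CJ at ZT18 at 30 weeks, and in Marco 6 livers lie above 5.

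At 12 weeks the chronic jet lag mice had higher mean levels than steady schedule mice for all 6 Kupffer cell genes and lower ones for all 4 class II genes. Neither group of genes held a call, against 4.44% of all genes called in this comparison. At an unadjusted p under 0.05 there were 2 of the 6 Kupffer cell genes and 4 of the 4 class II genes, against 20.7% of all genes. The genes of each group were correlated from liver to liver, so these counts are not of separate results. The median difference over the 6 Kupffer cell genes was 0.23 and over the 4 class II genes -0.51, beside 0.029 over all genes.

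Clec4f, a galactose-binding lectin whose expression in mice is close to specific for Kupffer cells, had levels from 4.02 to 4.64 with a median of 4.37 in 8 CJ livers, and from 3.81 to 4.72 with a median of 4.11 in 8 NS livers at 12 weeks. Most CJ livers lay in the upper part of the NS range, and the groups overlapped. The difference was 0.25 ± 0.11 (SE, adjusted p = 0.208).

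Csf1r, the receptor for the macrophage growth factors Csf1 and Il34, ran from 5.09 to 5.85 with a median of 5.66 in 8 CJ livers, and from 5.12 to 5.75 with a median of 5.34 in 8 NS livers. Its lowest CJ liver was below every NS liver, and the groups overlapped. The difference was 0.26 ± 0.10 (SE, adjusted p = 0.136), the smallest error and the lowest adjusted p among the 6 Kupffer cell genes. The 2 dimmer Csf1r probes gave 0.11 and 0.019, against 0.26 for the brightest, and correlated with it at r = 0.78 and 0.56 over the 32 arrays.

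Vsig4, the complement receptor through which Kupffer cells catch bacteria, differed by 0.26 ± 0.12 (SE, adjusted p = 0.243). Cd5l, a secreted scavenger protein that binds IgM, differed by 0.20 ± 0.16 (SE, adjusted p = 0.509). Adgre1, which encodes a surface antigen widely used to mark mouse macrophages, differed by 0.14 ± 0.20 (SE, adjusted p = 0.743), and its dimmer probe gave -0.0046. Marco, a scavenger receptor for bacteria and particles, differed by 0.18 ± 0.51 (SE, adjusted p = 0.881). Of these 4 none had an interval that left out 0, and Marco's 95% interval ran from -0.89 to 1.24. Marco's difference was 0.77 without NS ZT2 mouse 2 and -0.26 without CJ ZT18 mouse 1. Within slides 1 CJ liver stood beside 1 NS liver of the same age. Each of the 6 Kupffer cell genes was higher in the CJ liver on 6 of 8 slides. The 2 slides with a lower CJ liver were the same for all 6 genes, so these are not 6 separate results. The 2 livers of a slide had the same time of day on 2 of 8 slides at each age, so these counts mix schedule with time of day.

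H2-Aa, the alpha chain of the class II molecule I-A, had levels from -0.024 to 1.17 with a median of 0.81 in 8 CJ livers at 12 weeks, and from 0.70 to 2.07 with a median of 1.33 in 8 NS livers. The upper CJ livers reached into the NS range, and no CJ liver reached the NS median. The difference was -0.58 ± 0.22 (SE, adjusted p = 0.143). Without NS ZT10 mouse 2 at 12 weeks, a low NS liver, it was -0.74 with an adjusted p of 0.0456, the single call over all fits that left out 1 mouse.

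H2-Ab1, the beta chain that pairs with H2-Aa, ran from 3.82 to 5.05 with a median of 4.57 in CJ livers and from 4.59 to 5.70 with a median of 5.05 in NS livers. H2-Eb1, the beta chain of the I-E type, ran from 3.42 to 4.68 with a median of 4.17 in CJ livers and from 4.20 to 5.27 with a median of 4.71 in NS livers. Cd74, the invariant chain, ran from 2.81 to 3.90 with a median of 3.44 in CJ livers and from 3.30 to 4.30 with a median of 4.02 in NS livers. In each gene the 2 schedules overlapped and the lowest livers were CJ. The differences were -0.49 ± 0.20, -0.52 ± 0.20 and -0.44 ± 0.19 (SE), with adjusted p of 0.164, 0.141 and 0.187. Cd74 was lower in the CJ liver on 7 of 8 slides and the other class II genes on 6 of 8.

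At 30 weeks the class II differences between schedules were near 0, and again no member was called, against 6.25% of all genes; at an unadjusted p under 0.05 there was none of the 10, against 19.7% of all genes. H2-Aa differed by 0.015 ± 0.22, H2-Ab1 by -0.11 ± 0.20, H2-Eb1 by -0.12 ± 0.20 and Cd74 by -0.067 ± 0.19 (SE). The 95% interval of H2-Ab1 ran from -0.52 to 0.31. The 6 Kupffer cell genes had positive differences once more, with a median of 0.15 beside -0.019 over all genes. Cd5l had the lowest adjusted p, with levels from 5.44 to 6.12 and a median of 5.88 in 8 CJ livers, and from 5.005 to 5.88 and a median of 5.61 in 8 NS livers. The groups overlapped, and the difference was 0.33 ± 0.16 (SE, adjusted p = 0.271). Marco had the largest difference, 0.91 ± 0.51 (SE, adjusted p = 0.349). Cd5l and Marco were higher in the CJ liver on 7 of 8 slides.

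**Figure D2:**
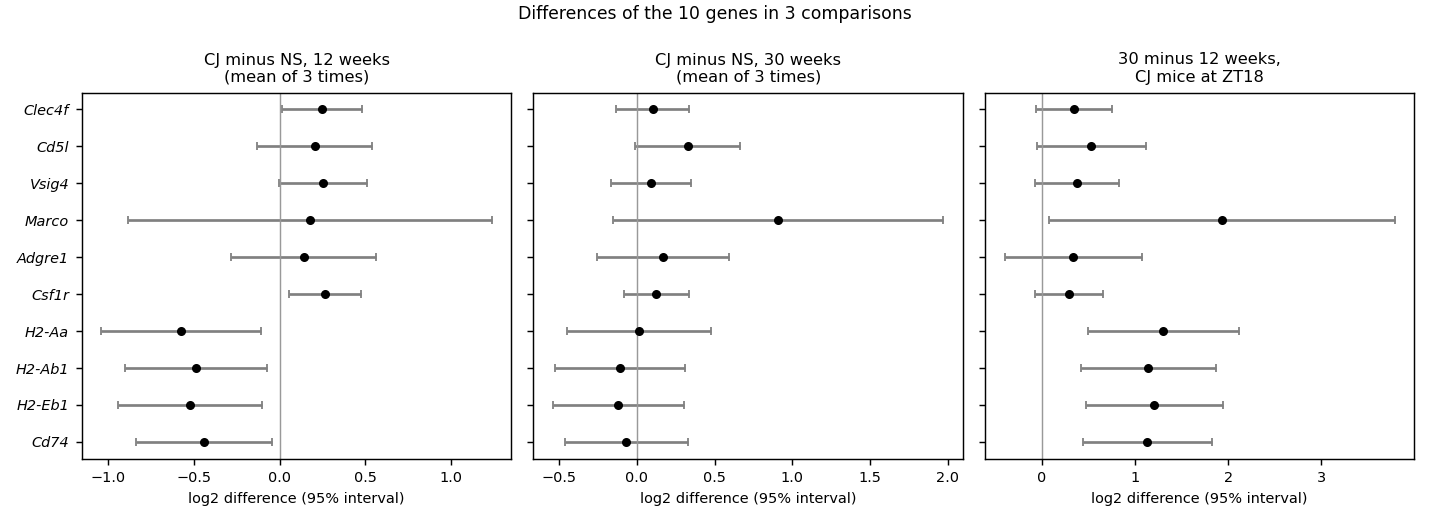
Log2 difference of each gene with its 95% interval, as CJ minus NS at 12 weeks, as CJ minus NS at 30 weeks, and as 30 minus 12 weeks in CJ mice at ZT18; the horizontal scales differ. At 12 weeks the 6 Kupffer cell genes lie right of 0 and the 4 class II genes left of it, and in the last comparison the class II genes lie between 1.13 and 1.31.

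The change of the schedule difference with age was tested directly. For the mean of the 3 times it was 0.59 ± 0.32 for H2-Aa, 0.38 ± 0.28 for H2-Ab1, 0.40 ± 0.29 for H2-Eb1 and 0.37 ± 0.27 for Cd74 (SE), with adjusted p from 0.416 to 0.584. No member was called, and 0.00865% of all genes were. The different class II values at 12 and 30 weeks are thus not shown to differ.

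At ZT18, among 12-week mice, 4 of the 4 class II genes and none of the 6 Kupffer cell genes were lower in every CJ liver than in any NS liver, against 11.2% of all genes. No member was called there, against 2.83% of all genes, and 4 were under an unadjusted p of 0.05, against 16.6% of all genes. The class II genes moved together from liver to liver, with r from 0.92 to 0.98, so these are not 4 separate results. H2-Ab1 had levels of 3.88, 3.82 and 4.43 in CJ livers, against 5.44, 4.67 and 4.86 in NS livers. H2-Eb1 had 3.56, 3.42 and 4.06 in CJ livers, against 4.84, 4.20 and 4.59 in NS livers. The CJ livers lay below all NS livers in both genes, with mouse 3 the highest of the CJ livers. H2-Aa had 0.25, -0.024 and 0.63 in CJ livers, against 1.66, 0.70 and 0.99 in NS livers. Cd74 had 2.81, 2.88 and 3.10 in CJ livers, against 4.17, 3.39 and 3.87 in NS livers. These 2 genes were separated in the same way, H2-Aa by less than 0.1 between its nearest livers. The differences were -0.98 ± 0.34 for H2-Ab1, -0.88 ± 0.34 for H2-Eb1, -0.86 ± 0.38 for H2-Aa and -0.85 ± 0.32 for Cd74 (SE), with adjusted p of 0.135, 0.189, 0.257 and 0.174. On the linear scale they were 0.508, 0.543, 0.553 and 0.555 of the NS level. With any 1 mouse left out, the log2 difference ran from -1.18 to -0.64 for H2-Ab1 and from -1.09 to -0.62 for H2-Eb1. It ran from -1.12 to -0.45 for H2-Aa and from -1.07 to -0.58 for Cd74. In CJ livers at ZT2 and ZT10 the class II genes also had lower means at 12 weeks, with differences of -0.37 to -0.049 at ZT2 and -0.55 to -0.40 at ZT10 and overlapping groups.

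At 30 weeks the CJ livers at ZT18 had the highest class II mean of the 12 groups, in all 4 genes. H2-Ab1 had 5.50, 5.06 and 5.07 in CJ livers, against 4.42, 4.86 and 5.67 in NS livers. Cd74 had 4.24, 4.08 and 4.14 in CJ livers, against 3.39, 3.72 and 4.51 in NS livers. The 3 CJ livers were close together and the NS livers wide apart, and the groups overlapped. The differences between schedules were 0.23 ± 0.34 and 0.28 ± 0.32 (SE), with adjusted p of 0.827 and 0.759. Among all 10 members, 3 Kupffer cell genes and no class II gene were higher in every CJ liver than in any NS liver at this age and time, against 13.3% of all genes, and none was called, against 3.47%.

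The age difference within CJ mice at ZT18 was set beside this after the data had been seen. Jet lag began at 4 weeks in all CJ mice. In every age difference of CJ mice, age and time under jet lag therefore cannot be told apart. All 4 class II genes were higher in every 30-week CJ liver than in any 12-week CJ liver. So was 1 Kupffer cell gene, Clec4f, against 9.54% of all genes separated in this way. The 4 class II genes are again not 4 separate results. H2-Aa was higher at 30 weeks by 1.31 ± 0.39, H2-Eb1 by 1.21 ± 0.35, H2-Ab1 by 1.14 ± 0.35 and Cd74 by 1.13 ± 0.33 (SE), which is 2.19-fold to 2.47-fold. Their adjusted p were 0.141, 0.129, 0.15 and 0.128, and 0.528% of all genes were called. In NS mice at ZT18 the same 4 age differences lay between -0.069 and 0.060, none called, against 0.0865% of all genes. The test of the difference between the schedules gave 1.38 ± 0.55 for H2-Aa, 1.21 ± 0.49 for H2-Ab1, 1.15 ± 0.50 for H2-Eb1 and 1.13 ± 0.47 for Cd74 (SE), with adjusted p from 0.568 to 0.605. By limma 0.0% of the 23109 genes were called in that test, and 7.77% were under an unadjusted p of 0.05. Over the 9 comparisons added after the data were seen, no member was called in 90 tests, and 10 were under an unadjusted p of 0.05, which is 11.1%, against 8.86% of the tests of all genes.

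Skeletal muscle markers were read in the same ZT18 livers. Of 12 such markers 11 were measured, and 2 were well above background on all arrays. At 12 weeks their median difference was -4.38, with 8 at an unadjusted p under 0.05, against 16.6% of all genes, and none called. In 30-week against 12-week CJ mice it was 5.31, with 11 unadjusted, against 12.3% of all genes, and none called. Their mean level was -3.31, -3.62 and 2.04 in the CJ livers of 12 weeks and 3.91, 3.65 and -0.58 in those of 30 weeks, against 1.73, 1.91 and 0.83 in NS livers of 12 weeks and 2.25, 0.87 and 2.67 in those of 30 weeks. In these mean levels the groups overlapped in both comparisons. With the acinar and muscle levels as covariates the schedule difference at 12 weeks was -0.69 for H2-Aa, -0.88 for H2-Ab1, -0.78 for H2-Eb1 and -0.87 for Cd74, with adjusted p of 0.574, 0.38, 0.461 and 0.353. The age difference in CJ mice was then 1.13, 1.03, 1.096 and 1.17 for the same genes, with adjusted p of 0.489, 0.486, 0.45 and 0.357. Without the 10 arrays rich in pancreatic acinar RNA, the schedule difference at 12 weeks was -0.39 for H2-Aa, -0.62 for H2-Ab1, -0.66 for H2-Eb1 and -0.77 for Cd74. At ZT18 and 12 weeks this left CJ mice 1 and 3 and, on the NS side, mouse 3 alone. A change with acinar RNA therefore cannot be told from a change of mice. Without those arrays the age difference of Marco in CJ mice at ZT18, 1.93 with all arrays, was 0.48. No other part of these markers in the class II values was tested.

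Marco varied far more between livers than the other members. Its levels spanned 4.42 log2 units, a 21.4-fold range, and its standard deviation within groups was 1.11, against a median of 0.23 over all genes; 0.705% of genes had a larger one. In the other 9 members this standard deviation was 0.21 to 0.47. A total of 6 livers lay above 5, the lowest of them at 5.10, and the highest of the other 26 was at 4.18. Of these 6 livers 4 were CJ and 2 were NS, in 5 of the 12 groups.

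At ZT18 and 30 weeks Marco had levels of 4.18, 5.69 and 6.35 in CJ livers, against 2.78, 3.33 and 3.43 in NS livers. Every CJ liver was above every NS liver, and the difference was 2.30 ± 0.87 (SE, adjusted p = 0.16), or 4.93-fold. It stayed between 1.91 and 2.87 when any 1 mouse was left out. At ZT18 and 12 weeks its levels were 6.02, 1.93 and 2.66 in CJ livers, against 2.69, 2.09 and 2.26 in NS livers. There CJ mouse 1 alone lay above the NS livers by a wide margin, and the difference of 0.93 ± 0.87 (SE) was -0.32 without it. Without the acinar-rich arrays the difference was 2.31, with CJ mice 1 and 3 set against NS mouse 3 alone. At ZT2 and 12 weeks the high liver was an NS one, with 3.25 and 2.91 in CJ livers, against 2.43 and 5.64 in NS livers.

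Beside Marco, Cd5l and Csf1r were apart at ZT18 and 30 weeks. Cd5l had 5.98, 5.90 and 6.12 in CJ livers, against 5.005, 5.23 and 5.72 in NS livers, and the groups did not overlap. The difference was 0.67 ± 0.28 (SE, adjusted p = 0.21). Csf1r had 5.70, 5.79 and 5.72 in CJ livers, against 5.26, 5.37 and 5.67 in NS livers, also without overlap and with a difference of 0.30 ± 0.17 (SE, adjusted p = 0.405). Adgre1 had 1.78, 2.26 and 2.37 in CJ livers, against 1.39, 1.59 and 2.11 in NS livers, which overlapped.

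At the other times the Kupffer cell genes went both ways. At ZT2, 3 of the 6 at 12 weeks and 4 at 30 weeks were higher in both CJ livers than in both NS livers, against 22.2% and 21.1% of all genes with 2 mice a group. At ZT10 and 12 weeks 2 of them, Clec4f and Csf1r, were higher in all CJ livers, against 9.74% of all genes. Clec4f had 4.44, 4.64 and 4.27 in CJ livers there, against 4.24, 3.81 and 4.12 in NS livers, with a difference of 0.40 ± 0.19 (SE, adjusted p = 0.29). Csf1r had 5.60, 5.70 and 5.62 in CJ livers, against 5.49, 5.12 and 5.35 in NS livers. At ZT10 and 30 weeks the fitted CJ minus NS differences of all 10 members were negative, from -0.49 to -0.021. The plain mean of Csf1r was higher in CJ livers, at 5.55 against 5.52 in NS livers. In no member were the groups apart, against 9.67% of all genes lower without overlap. None of these was called, against 0.255%, 1.36%, 1.71% and 0.736% of all genes at ZT2 of 12 and 30 weeks and ZT10 of 12 and 30 weeks.

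None of the members was called for time of day, against 5.70% and 3.62% of all genes in CJ mice of 12 and 30 weeks and 17.4% and 11.2% in NS mice of 12 and 30 weeks. The lowest adjusted p was 0.332, for H2-Ab1 in CJ mice of 12 weeks, and no member was under an unadjusted p of 0.05, against 16.7% to 30.9% of all genes. In CJ mice of 12 weeks the class II time means spanned 0.68 to 0.78, with ZT18 lowest, beside a median of 0.29 over all genes for the same quantity. In NS mice of 30 weeks these spans were 0.021 to 0.30. A time-of-day pattern that differed between schedules was not called for any member either, against 1.90% of all genes at 12 weeks and 1.97% at 30 weeks, with a lowest adjusted p of 0.484.

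The mean age difference was 0.50 ± 0.22 for H2-Aa in CJ mice (SE, adjusted p = 0.195), 0.39 ± 0.20 for H2-Eb1, 0.34 ± 0.19 for Cd74 and 0.31 ± 0.20 for H2-Ab1. In NS mice the same 4 genes gave -0.088 ± 0.22, -0.018 ± 0.20, -0.031 ± 0.19 and -0.069 ± 0.20. The 2 sets share no mice, and in CJ mice age cannot be told apart from time under jet lag. No member was called in either schedule, against 5.31% of all genes in CJ mice and 0.90% in NS mice. Among the Kupffer cell genes Marco gave 1.01 ± 0.51 in CJ mice (SE, adjusted p = 0.257) and Vsig4 gave 0.26 ± 0.12 in NS mice (SE, adjusted p = 0.508).

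In the order of the 12 group means, most neighbours lay closer together than the mice of 1 group. In the 4 class II genes 1 of 11 gaps between neighbours was larger than the standard deviation within groups, the gap above the lowest group, which was 0.73 for H2-Aa, 0.56 for H2-Ab1, 0.49 for H2-Eb1 and 0.59 for Cd74. In Marco the 1 such gap, of 1.38, lay below the highest group, CJ at ZT18 and 30 weeks. In Clec4f, Cd5l, Vsig4, Adgre1 and Csf1r none of the 11 gaps was larger. The highest mean was in CJ mice at ZT2 and 12 weeks for Clec4f, Vsig4 and Csf1r, and the lowest in NS mice at ZT10 and 12 weeks. CJ mouse 2 at ZT18 and 12 weeks had the lowest level of all 32 livers in 8 of the 10 members. Its array was among those rich in pancreatic acinar RNA, and any part of this in its levels was not tested.

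The class II genes moved as 1 block from liver to liver, and the Kupffer cell genes as another. Over the 32 livers the 6 pairs of class II genes had Pearson's r from 0.92 to 0.98 and Spearman's rho from 0.89 to 0.98. Each had a permutation p of 1e-05, the smallest that 100000 resamples allowed, which was 3e-05 after adjustment over 45 pairs. Leaving out the 2 livers furthest from the median gave r from 0.90 to 0.97. Deviations from the group means gave 0.91 to 0.98 and deviations from the slide means 0.94 to 0.99. The 10 pairs of Kupffer cell genes other than Marco had r from 0.66 to 0.87 with a median of 0.81, and rho from 0.69 to 0.90, all with an adjusted permutation p of at most 0.00015. Their r was 0.62 to 0.88 without the 2 furthest livers, 0.69 to 0.93 for deviations from group means and 0.79 to 0.94 for deviations from slide means.

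Between the 2 blocks the relation was weaker. The 20 pairs of a Kupffer cell gene other than Marco with a class II gene had r from 0.26 to 0.48 with a median of 0.36. Of the 20 pairs 7 passed an adjusted permutation p of 0.05 by Pearson's r and 1 by Spearman's rho, and without the 2 furthest livers r was 0.16 to 0.53. For deviations from the group means these pairs had r from 0.42 to 0.69. Values within 1 array share its scaling and its RNA.

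**Figure D3:**
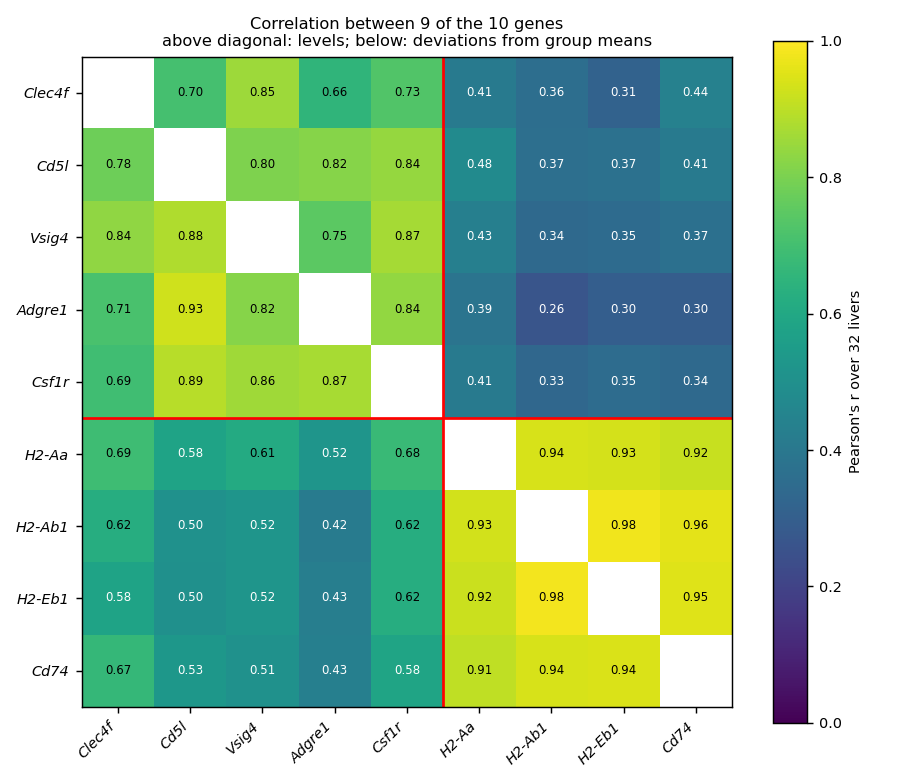
Pearson's r between 9 of the 10 genes over 32 livers, of levels above the diagonal and of deviations from group means below it, with colour from 0 to 1 and red lines between Kupffer cell and class II genes. The class II pairs reach 0.92 to 0.98 above the diagonal, against 0.26 to 0.48 for pairs of 1 Kupffer cell and 1 class II gene.

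Over all 32 livers Marco had r of 0.76 with Adgre1, 0.67 with Cd5l, 0.62 with Csf1r, 0.47 with Vsig4 and 0.37 with Clec4f. Their adjusted permutation p over 45 pairs were 3e-05, 0.00011, 0.00036, 0.0133 and 0.0557. Marco is given apart because its levels left a gap between 4.18 and 5.10. The cut at 5 lies in that gap and was no part of the planned correlations. Whether the levels form separate clusters was not tested. Among the 26 livers under 5 Marco correlated with all 5 other Kupffer cell genes. Its r was 0.62 with Cd5l, 0.59 with Vsig4, 0.55 with Clec4f, 0.52 with Adgre1 and 0.46 with Csf1r, with rho of 0.59, 0.60, 0.56, 0.53 and 0.45. The adjusted permutation p over 10 relations ran from 0.0044 to 0.0377 for r and from 0.0088 to 0.0479 for rho. Without the 2 furthest livers r was 0.31 to 0.52. In the 6 livers above 5 none of the 5 relations passed. Their r was 0.15 to 0.80, with adjusted exact permutation p of at least 0.111. Their rho was 0.26 to 0.89, with adjusted exact permutation p of at least 0.0556. With 6 livers chosen by Marco's own level, this does not show that the relation was absent there.

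**Figure D4:**
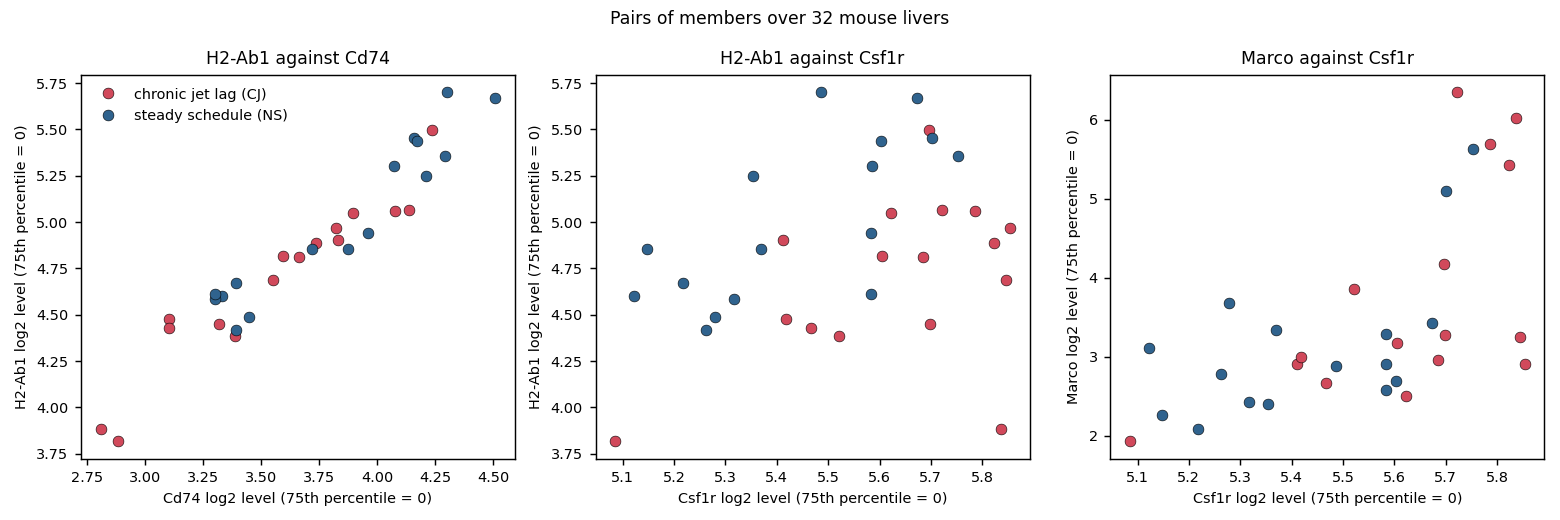
Log2 levels of 3 pairs of genes in 32 livers, CJ and NS in separate colours: H2-Ab1 against Cd74, H2-Ab1 against Csf1r, and Marco against Csf1r. H2-Ab1 follows Cd74 closely and Csf1r loosely, and the 6 livers with Marco above 5 stand clear of the other 26.

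Genes whose levels followed 4 of the members most closely were ranked among 13519 genes over the 32 arrays, members left out. For Clec4f they were Folr2 with r = 0.90, Tyrobp with 0.88, C1qa with 0.86, Nfam1 with 0.84 and C1qb with 0.84. For Csf1r they were C1qc with r = 0.91, Fcer1g with 0.89, Ctss with 0.88, Folr2 with 0.88 and Nckap1l with 0.87. For H2-Aa they were H2-DMa with r = 0.90, Ms4a4b with 0.87, H2-DMb1 with 0.85, Ltb with 0.81 and Itgb7 with 0.81. For Cd74 they were H2-DMb1 with r = 0.92, Cd3d with 0.87, Itgb7 with 0.84, H2-DMa with 0.81 and Ltb with 0.79. Folr2 is a folate receptor of macrophages, C1qa to C1qc encode the chains of complement C1q, and H2-DMa and H2-DMb1 encode the chaperone that loads peptides onto class II molecules. Cd3d is a chain of the T cell receptor complex.

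Of 25 other Kupffer cell and macrophage genes 24 were measured, and none was called between schedules at either age. Their median difference, CJ over NS, was 0.067 at 12 weeks with 2 genes at an unadjusted p under 0.05, against 20.7% of all genes, and 0.21 at 30 weeks with 4, against 19.7%. Slc40a1, the iron exporter ferroportin, gave 0.24 ± 0.074 at 12 weeks (SE, adjusted p = 0.0661) and 0.24 ± 0.074 at 30 weeks. For time of day 5 of the 24 were called in NS mice of 12 weeks, against 17.4% of all genes, 2 in NS mice of 30 weeks, against 11.2%, and 1 in CJ mice of 12 weeks, against 5.70%. Some of these genes are also expressed in hepatocytes.

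Of 17 other genes of class II presentation 14 were measured. Rfxank, a subunit of the RFX complex that binds the X box, was the 1 called between schedules in the mean of the 3 times. That is 1 of 14 genes at 30 weeks, against 6.25% of all genes, and none at 12 weeks, against 4.44%. Rfxank fell by 0.59 ± 0.092 in CJ mice of 30 weeks (SE, adjusted p = 0.00046), and at 12 weeks it differed by -0.29 ± 0.092 (SE, adjusted p = 0.0749). At ZT18 it fell by 0.87 ± 0.16 at 12 weeks and by 0.88 ± 0.16 at 30 weeks (SE, adjusted p = 0.0031 and 0.0026). At ZT18 the shares of all genes called were 2.83% at 12 weeks and 3.47% at 30 weeks. Rfxank was also called for time of day in NS mice of 12 and 30 weeks and in CJ mice of 12 weeks. Of all genes 17.4%, 11.2% and 5.70% were called in these tests. Ciita, the class II coactivator, differed by -0.047 ± 0.14 at 12 weeks and by -0.030 ± 0.14 at 30 weeks (SE). The median over the 14 genes was -0.032 at 12 weeks and -0.019 at 30 weeks. H2-Eb2, a class II beta chain gene beside H2-Eb1, fell by 0.91 ± 0.24 in 30-week against 12-week CJ mice (SE, adjusted p = 0.0276) and by 1.13 ± 0.24 in NS mice (SE, adjusted p = 0.019).

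Genes that respond to interferon gamma, the main inducer of class II, had a median difference of -0.19 at 12 weeks, with none of 16 called and 6 at an unadjusted p under 0.05, against 20.7% of all genes, and of -0.024 at 30 weeks, with none called and 2 unadjusted, against 19.7%. Irgm1 was called at ZT18 and 12 weeks and Ifngr2 at ZT18 and 30 weeks, against 2.83% and 3.47% of all genes. Among 17 genes of class I presentation, Tap1, a subunit of the peptide transporter, fell by 0.57 ± 0.13 in CJ mice of 12 weeks (SE, adjusted p = 0.0153). There 1 gene was called in all, against 4.44% of all genes. At 30 weeks Pdia3 and Calr, chaperones of class I assembly, fell by 0.33 ± 0.062 and 0.29 ± 0.081 (SE, adjusted p = 0.0021 and 0.0343). At that age 6.25% of all genes were called. Of the 7 ligands and adaptors of the CSF1 receptor none was called between schedules for the mean of the 3 times, with Csf1 at 0.19 ± 0.094 at 12 weeks (SE, adjusted p = 0.25).

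Markers of other cell types in liver were read as well. Of the dendritic cell markers 8 of 10 were measured, of the B cell markers 9 of 10 and of the T and NK cell markers 9 of 12, and none of the 3 lists held a call between schedules at 12 weeks. Well above background on all arrays were 6 of the 8 dendritic cell markers, 3 of the 9 B cell markers and 8 of the 9 T and NK cell markers. The median differences of the 3 lists were -0.037, -0.054 and -0.12 at 12 weeks and 0.029, -0.26 and -0.00088 at 30 weeks. Ms4a1, the CD20 antigen of B cells, fell by 0.83 ± 0.21 in CJ mice of 30 weeks (SE, adjusted p = 0.0208). Of the liver endothelial markers 10 of 10 were measured and none was called between schedules, with medians of 0.032 at 12 weeks and -0.080 at 30 weeks. Of 12 monocyte and neutrophil markers 9 were measured, with medians of 0.037 at 12 weeks and -0.14 at 30 weeks. Of these 9, Ccr2, the chemokine receptor of monocytes, was the 1 called at 12 weeks and fell by 0.72 ± 0.20 in CJ mice (SE, adjusted p = 0.0434), and none was called at 30 weeks. Of all genes 4.44% were called at 12 weeks and 6.25% at 30 weeks. Of the 9 markers 5 were well above background on all arrays. The part of these cell types in the class II values was not tested.

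Between 43.4% and 58.1% of probes were well above background per array, and no spot was saturated. Of the 10 hepatocyte markers 9 were measured, and those 9 were well above background on every array. Of the 32 arrays 10, 7 CJ and 3 NS, were rich in pancreatic acinar RNA. The acinar markers had a median difference of 1.40 at 12 weeks and 0.67 at 30 weeks, with none of 9 called. In all 10 members the levels on these 10 arrays overlapped those on the other 22. For Csf1r they ran from 5.09 to 5.85 on the acinar-rich arrays, against 5.12 to 5.85 on the others. These ranges pool all groups, so their overlap does not show whether acinar RNA changed a level.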

How the data were processed

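Agilent 1-colour arrays of total liver RNA from 32 mice were used, 1 mouse per array. Per the file headers, spot intensity was extracted by Agilent Feature Extraction 11.0.1.1 (version 9.1 per the submitters' processing notes), whose statistics block lists a background-subtracted signal and detrending fits within the array, and processed intensity is what the authors deposited. A log2 table deposited by the authors served as an alternative; the design text says that analysis followed normalization and batch-effect removal, with neither method named. Its columns have medians of 9.82 to 9.90.

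From the processed intensity, log2 values of non-outlier spots were averaged per probe and the array's 75th percentile was subtracted. A probe was kept where every array of some group measured it well above background (30487 of 55681), and the brightest probe stood for a gene. RefSeq identifiers were matched to symbols without version; 26582 probes had a symbol and 29099 none. limma 3.58.1 (R 4.3.3) fitted 12 group means with slide as a random block (correlation 0.25), so a difference can differ slightly from that of plain means. P-values were adjusted by Benjamini-Hochberg over 23109 genes, and 0.05 was the threshold. The fit was tested on simulated data. Correlations used 100000 permutations.

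The members and gene lists, and the comparisons made, were chosen with earlier results of these data known. Named genes were all 10 members, up to 4 called or most abundant genes of a list, and the 5 genes most like 4 members. Slc40a1, Ciita and Csf1 were named after their values were seen. Some results for single genes are not reported here. Alternatives were normexp background correction (offset 50), done on the median spot signal in place of the planned mean, quantile normalization, no filter, slide as a fixed block, no slide, the mouse number as a block, the authors' table, the mean of a gene's probes, covariates for acinar and muscle markers, leaving out acinar-rich arrays, ZT2 mice or single mice. Nothing in the labels says whether mice came from separate litters or cages beyond single housing, and each mouse was taken as 1 sample. The number of arrays limits the precision. Gene coordinates are not printed, since the array design and the reference use different builds; promoter coordinates are those of GRCm38.p6.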

Additional observations from a re-analysis of the deposited data

Results flagged for a closer look

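The age difference of Clec4f at ZT10 went opposite ways in the 2 schedules. Its levels were 4.25, 4.17 and 4.04 in CJ livers of 30 weeks, against 4.44, 4.64 and 4.27 in CJ livers of 12 weeks. They were 4.46, 4.25 and 4.38 in NS livers of 30 weeks, against 4.24, 3.81 and 4.12 in NS livers of 12 weeks. Every older CJ liver was below every younger one, and every older NS liver was above every younger one. The separations were narrow. The nearest livers lay at 4.254 and 4.270 in CJ mice and at 4.247 and 4.242 in NS mice, against a standard deviation within groups of 0.23. Of all genes 7.7% were separated downward in CJ mice and 6.91% upward in NS mice. The difference between the schedules was -0.60 (limma, adjusted p = 0.785). By limma 0 genes of all were called in that test, and 6.26% were under an unadjusted p of 0.05.

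In CJ mice the age difference of Clec4f also went opposite ways at ZT18 and at ZT10. At ZT18 its levels were 4.49, 4.53 and 4.60 at 30 weeks, against 4.27, 4.02 and 4.30 at 12 weeks. The age difference at ZT18 minus that at ZT10 was 0.65, and this difference was not tested.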

How the results depend on the processing

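The count of 0 called members held in all 281 results of the 11 other settings over 26 comparisons, the mouse number as a block included. With 1 mouse left out it held in all but 1 of 832 results, and the range was 0 to 1 for CJ over NS at 12 weeks (H2-Aa, without NS ZT10 mouse 2). In the 12-week schedule comparison no member changed sign under the 11 settings. Values that changed sign under a setting numbered 19 of 605, and the cause was not tested. For CJ over NS, 30 weeks, they were -0.038 for H2-Aa (acinar and muscle covariates), 0.062 for H2-Ab1 (without acinar-rich arrays), 0.062 for H2-Eb1 (without acinar-rich arrays), 0.035 for H2-Eb1 (without ZT2 mice), 0.034 for Cd74 (authors' deposited table), 0.10 for Cd74 (without acinar-rich arrays) and 0.0047 for Cd74 (without ZT2 mice). For 30 over 12 weeks, CJ, they were -0.0078 for Adgre1 (acinar and muscle covariates), -0.055 for Adgre1 (without acinar-rich arrays), 0.020 for Csf1r (normexp background correction), 0.057 for Csf1r (quantile normalization), 0.063 for Csf1r (mean of the probes of a gene), 0.044 for Csf1r (authors' deposited table), 0.057 for Csf1r (without acinar-rich arrays) and 0.079 for Csf1r (without ZT2 mice). For 30 over 12 weeks, NS, they were -0.014 for Cd5l (quantile normalization), -0.085 for Cd5l (authors' deposited table), -0.021 for Marco (without acinar-rich arrays) and 0.17 for Adgre1 (without ZT2 mice). With 1 mouse left out, 19 results changed sign in at least 1 fit. For 30 over 12 weeks, CJ, the ranges were -0.14 to 0.17 for Adgre1, -0.038 to 0.046 for Clec4f and -0.080 to 0.044 for Csf1r. For 30 over 12 weeks, NS, the ranges were -0.26 to 0.24 for Adgre1, -0.15 to 0.18 for Cd5l, -0.21 to 0.15 for Cd74, -0.34 to 0.17 for H2-Aa, -0.23 to 0.092 for H2-Ab1, -0.19 to 0.15 for H2-Eb1 and -0.31 to 0.87 for Marco. For CJ over NS, 12 weeks, the ranges were -0.11 to 0.39 for Adgre1 and -0.41 to 0.77 for Marco. For CJ over NS, 30 weeks, the ranges were -0.21 to 0.073 for Cd74, -0.13 to 0.16 for H2-Aa, -0.24 to 0.026 for H2-Ab1 and -0.26 to 0.027 for H2-Eb1. For CJ over NS at ZT18, 30 weeks, the ranges were -0.051 to 0.62 for H2-Ab1 and -0.026 to 0.69 for H2-Eb1. For CJ over NS at ZT18, 12 weeks, the ranges were -0.32 to 1.83 for Marco. The 12-week Marco value was 0.77 without NS ZT2 mouse 2.

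Same-numbered mice of both schedules did not deviate together, with 2 of 16 correlations over 0.1 and a range from -0.43 to 0.22, so the mouse numbers were not taken as pairs. Deviations of the mice of a group depend on each other, and at ZT2 both mouse numbers of an age gave the same correlation. The 16 correlations are thus not 16 separate checks. With the replicate block H2-Ab1 at ZT18 and 12 weeks was -0.96, and 0 members were called. All member probes were well above background on every array, and each group held 2 or 3 mice.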
